A study of Homo sapiens with 4 samples.

Results

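The stress kinases JNK and p38 and their downstream targets c-Jun and HSP27 were followed in LN229 cells, an established human glioblastoma line. Chaperones and unfolded protein response proteins were measured beside them, all by reverse phase protein array (RPPA). Members were the rows whose names, with case and hyphens ignored, were JNK or JNK2, p38, c-Jun, HSP27, HSP60, HSP70, BiP-GRP78, PERK, XBP1 or TRAP1, alone or with a phosphorylated site. The rule found 14 of the 440 antibodies, of which 10 bind the protein whatever its phosphorylation (called total antibodies here) and 4 bind a phosphorylated site. The study compared 2 untreated LN229 samples, labelled as controls at 0 min, with 2 samples given 300 nM salmon calcitonin (sCT, a peptide ligand of the calcitonin receptor) for 60 min, with the treatment described as done in biological duplicate. Whether the samples came from separate cultures is not stated, so p-values measure the spread between these samples, which may be technical. Every sample was of the same line, with no other allele or agent named. No untreated sample was labelled at 60 min, so an effect of sCT cannot be told apart from one of elapsed time or handling. Each value is a linear ratio on a relative scale with a median near 1 over the panel in each sample, so a level compares samples for one antibody and not antibodies with each other.

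JNK and p38 are mitogen-activated protein kinases that respond to stress and cytokines, and each is switched on by phosphorylation of a threonine and a tyrosine in its activation loop. Active JNK phosphorylates the transcription factor c-Jun, while p38 acts through the kinase MAPKAPK2 on the small heat shock protein HSP27. Heat shock proteins assist the folding of other proteins in the cytosol (HSP70), the mitochondria (HSP60, TRAP1) and the endoplasmic reticulum (BiP). PERK and XBP1 belong to separate branches of the unfolded protein response, which is set off by misfolded protein in the endoplasmic reticulum.

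After sCT, the p38, HSP27 and c-Jun sites were lower, while 6 of the 10 total antibodies were slightly higher, a rise that held for only 1 of them, HSP70, when the samples were centred on loading controls. Of the 3 falls only that of p38 was still called after quantile normalization. The site of c-Jun fell to 0.418 of its untreated level, that of HSP27 to 0.511 and that of p38 to 0.678. The JNK site went the other way, at 1.17 times its untreated level. HSP70, at 1.33 times, was the largest rise among the total antibodies that passed the test. Levels were compared on the log2 scale with limma, a test that shares the estimate of the spread across all antibodies, with Benjamini-Hochberg adjustment over the 440, and a call means an adjusted p under 0.05. Of the 14 antibodies, 10 were called, against 55.0% of the whole panel. Of these, 7 were higher, where 21.4% of the panel was, and 3 were lower, where 33.6% was. The untreated and sCT samples did not overlap for 13 of the 14, against 85.9% of the panel. For a heatmap of its RPPA data the study used a p under 0.05 with an absolute log2 fold change of at least 0.58. The caption names neither the test nor any adjustment. Taken with the unadjusted limma p, these stricter thresholds were passed by 2, the c-Jun and HSP27 sites, against 21.6% of the panel.

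**Figure D1:**
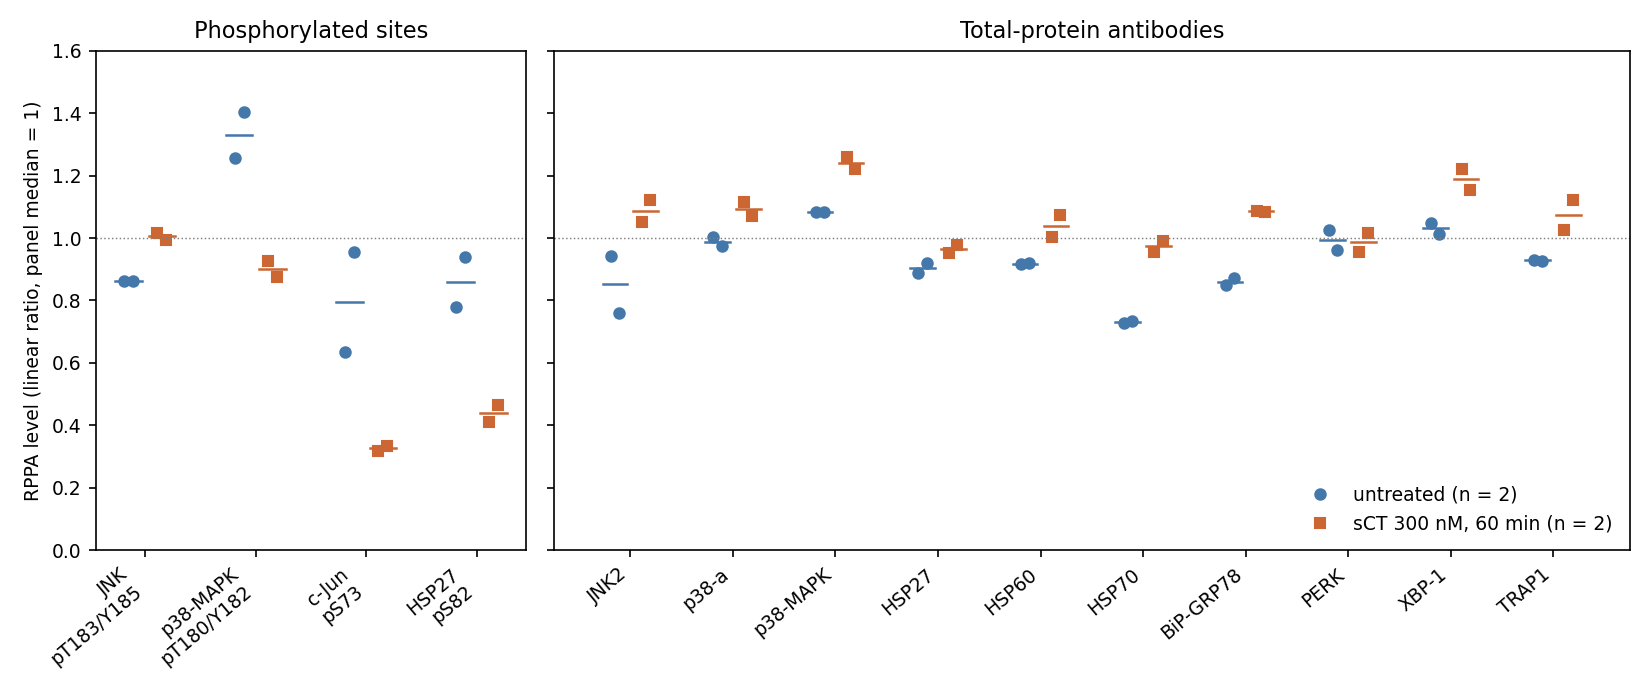
RPPA level (vertical axis, linear ratio with a panel median of 1) of each antibody in each sample, with circles for untreated and squares for sCT-treated LN229 cells and short lines for the means of 2 samples. The sCT samples lie below the untreated samples for the p38, c-Jun and HSP27 sites and above them for the JNK site and for 9 of the 10 total antibodies, while those of PERK overlap.

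The samples themselves bear on the size of every change below. The median SD of replicates was 0.05 (log2) in untreated and 0.04 in sCT-treated cells, and over the 14 antibodies it was 0.03 and 0.06. Of 5 antibodies to proteins often used as loading controls (GAPDH, beta-actin, vinculin, porin and cyclophilin F), 3 were called higher after sCT, with a median log2 fold change of 0.17 and GAPDH at 0.57. When each sample was centred on these controls, each first taken relative to its own mean (relative loading control centring), the panel median moved by -0.18 on the log2 scale. All results given with the deposited scaling are therefore also given with this centring where it changes a direction or a call. The part of the scaling in the small rises was not tested. In lysates of whole cultures, a change in all cells and a change in some of them cannot be told apart. Of the proteins often seen in glioblastoma, SOX2, vimentin, EGFR and CD44 were on the panel, but a relative level does not show whether a protein was present.

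The activation loop of p38 carried less phosphorylation signal after sCT, and its total antibodies did not share the fall. The antibody to p38 phosphorylated at T180/Y182, the pair of residues that activates the kinase, gave levels of 1.26 and 1.40 in untreated cells and 0.927 and 0.875 after sCT. Both sCT samples were thus below both untreated samples, and the gap of the means was several times the spread of the replicates. The log2 fold change was -0.56 (SE 0.07, 95% interval -0.75 to -0.37, limma adjusted p = 0.00332). It stayed called with each sample left out in turn, between -0.64 and -0.48, at -0.75 with relative loading control centring and at -0.44 after quantile normalization.

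Total p38 was measured with antibodies listed as p38-MAPK and p38-a, the alpha isoform. The p38-MAPK antibody gave 1.08 in both untreated samples and 1.26 and 1.22 after sCT, a log2 change of 0.20 (limma, SE 0.04, adjusted p = 0.0187). The p38-a antibody gave 1.002 and 0.973 in untreated cells and 1.11 and 1.07 after sCT, a log2 change of 0.15 (limma, SE 0.05, adjusted p = 0.0586). The groups did not overlap for either antibody, although p38-a did not pass the threshold. It was called on linear levels (adjusted p = 0.0491) and with trend and robust eBayes (adjusted p = 0.0317), but not in any of the 4 fits that left out a sample (adjusted p from 0.0975 to 0.230). With relative loading control centring the change of p38-MAPK was 0.01 (adjusted p = 0.887) and that of p38-a turned to -0.04 (adjusted p = 0.648). Neither antibody thus gives a rise of total p38 that holds across scalings, although only p38-a changed direction. The call of p38-MAPK was also lost with any single sample left out, with adjusted p between 0.0621 and 0.107.

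Since a shift of a whole sample cancels in the difference of 2 antibodies, the site was set against the total protein within each sample. Against p38-MAPK, the log2 difference was 0.22 and 0.38 in the untreated samples and -0.44 and -0.48 in the sCT samples. The means were 0.30 ± 0.11 (SD, n = 2) and -0.46 ± 0.03 (SD, n = 2), so the site fell by 0.76 on the log2 scale relative to the protein, or to 0.591 of the untreated ratio. Against p38-a the same difference was -0.71. With 2 samples a group an exact permutation test over samples cannot give a two-sided p under 0.333, and it gave p = 0.333 for both, as it does for any 2 groups that do not overlap.

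HSP27, the small heat shock protein downstream of p38, showed the same split between site and protein. The antibody to HSP27 phosphorylated at S82 gave 0.780 and 0.940 in untreated cells and 0.411 and 0.466 after sCT. The highest sCT sample was well below the lowest untreated one. The log2 fold change was -0.97 (SE 0.12, 95% interval -1.27 to -0.66, limma adjusted p = 0.00250), and it was called with each sample left out, between -1.10 and -0.83, and with relative loading control centring at -1.15. Quantile normalization, which gives the samples a common distribution, left -0.21 (adjusted p = 0.608).

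Total HSP27 was 0.888 and 0.921 in untreated cells and 0.953 and 0.979 after sCT. The groups did not overlap, but the log2 fold change of 0.09 (SE 0.05, 95% interval -0.03 to 0.22, limma adjusted p = 0.144) did not pass the threshold, and it was -0.09 with relative loading control centring. Within samples, the log2 level of the S82 site relative to total HSP27 was -0.19 and 0.03 in untreated cells and -1.21 and -1.07 after sCT. The site was therefore lower relative to its protein in both sCT samples. The difference of the means was -1.06, or 0.479 of the untreated ratio (exact permutation test over samples, two-sided, p = 0.333, the smallest possible). Under quantile normalization, an alternative added after the data were seen, this difference was -0.44.

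**Figure D2:**
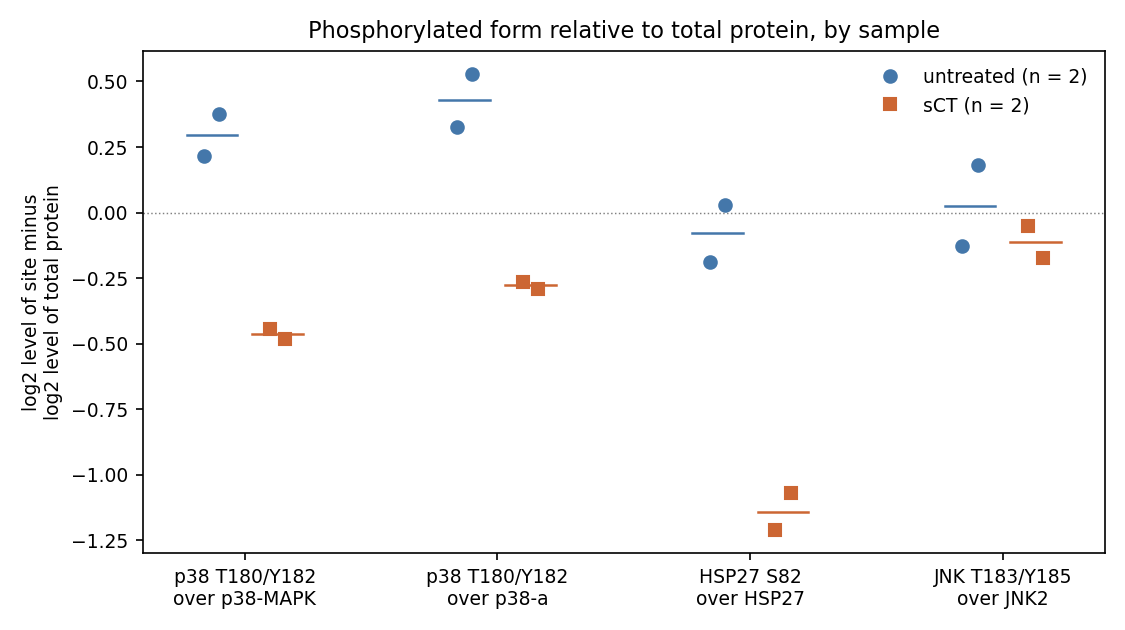
Log2 level of a phosphorylated site minus the log2 level of the total protein in the same sample (vertical axis), for p38 against both of its total antibodies, HSP27 and JNK, with circles for 2 untreated and squares for 2 sCT samples and lines for their means. The p38 and HSP27 sites are lower relative to their proteins in both sCT samples, while the JNK values of the groups overlap. The sCT means are -0.46 for p38 against p38-MAPK, -0.28 against p38-a and -1.14 for HSP27.

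The largest fall of the group was that of c-Jun phosphorylated at S73, a site that JNK phosphorylates on this component of the AP-1 transcription factor. Its levels were 0.636 and 0.954 in untreated cells and 0.317 and 0.335 after sCT. The untreated samples differed from each other far more than the sCT samples did, but both were above them. The log2 fold change was -1.26 (SE 0.20, 95% interval -1.79 to -0.73, limma adjusted p = 0.00640), which placed it at rank 38 of the 440 antibodies counted from the largest fall. Left-out samples moved it between -1.55 and -0.96, and without sCT replicate 1 it was not called (-1.22, adjusted p = 0.0578). Relative loading control centring gave -1.44, and quantile normalization -0.26 (adjusted p = 0.701). Total c-Jun was not among the antibodies used here, so the site could not be set against the amount of its protein.

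The JNK antibodies did not follow c-Jun. The antibody to JNK phosphorylated at T183/Y185, the residues of its activation loop, gave 0.863 and 0.862 in untreated cells and 1.02 and 0.995 after sCT. Both sCT samples were higher, with a log2 change of 0.22 (SE 0.04, 95% interval 0.11 to 0.33, limma adjusted p = 0.0117). It was 1 of the 9 sites called higher among the 88 site antibodies, a share of 10.2%, whereas 47.7% of the sites were called lower. The call was lost without either sCT sample (adjusted p = 0.0783 without replicate 1 and 0.0580 without replicate 2) and with relative loading control centring, where the change was 0.04 (adjusted p = 0.677).

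JNK2, a JNK isoform encoded by MAPK9, had total levels of 0.943 and 0.760 in untreated cells and 1.05 and 1.12 after sCT. The groups did not overlap, but the untreated samples lay far apart, and the log2 fold change of 0.36 (SE 0.11, 95% interval 0.06 to 0.66, limma adjusted p = 0.0523) missed the threshold. Without untreated replicate 1 it was 0.52 and called (adjusted p = 0.0131), and on linear levels it was called as well (adjusted p = 0.0480). Without untreated replicate 2 it was 0.21 (adjusted p = 0.0909), after quantile normalization 0.58 (adjusted p = 0.104) and with relative loading control centring 0.18 (adjusted p = 0.290), so its size depended on the sample and the scaling. Relative to JNK2, the phosphorylated form was at -0.13 and 0.18 in untreated cells and -0.05 and -0.17 after sCT on the log2 scale, so the groups overlapped. The difference of -0.14 (exact permutation test over samples, two-sided, p = 0.667) was within the spread of the samples and turned to 0.01 without untreated replicate 2. The antibody to the phosphorylated form may bind other JNK isoforms too, and total antibodies to those were not used here.

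Among the chaperones, HSP70, which folds proteins in the cytosol, had the clearest change. Its levels were 0.728 and 0.735 in untreated cells and 0.957 and 0.992 after sCT. Replicates within each group were close, and the groups were well apart. The log2 fold change was 0.41 (SE 0.05, 95% interval 0.29 to 0.53, limma adjusted p = 0.00198), rank 23 of the 440 antibodies from the largest rise. HSP70 was called with every sample left out (0.39 to 0.44) and after quantile normalization (1.03). With relative loading control centring it was 0.23 (adjusted p = 0.0404), the only rise of the group still called under that centring.

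The mitochondrial chaperones HSP60 and TRAP1 (a mitochondrial member of the HSP90 family) moved by less. HSP60 gave 0.916 and 0.919 in untreated cells and 1.005 and 1.07 after sCT, and TRAP1 gave 0.931 and 0.926 and then 1.03 and 1.12. For each of them both sCT samples were higher, but the sCT samples were spread much more widely than the untreated ones. The log2 fold changes were 0.18 for HSP60 (limma, SE 0.05, adjusted p = 0.0408) and 0.21 for TRAP1 (limma, SE 0.06, adjusted p = 0.0388), and with relative loading control centring they were -0.01 and 0.02. HSP60 was not called with any sample left out (adjusted p from 0.0647 to 0.176), and TRAP1 was called only without sCT replicate 1 (adjusted p = 0.0489).

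Of the endoplasmic reticulum proteins, BiP and XBP1 were higher after sCT and PERK was not. BiP, listed as BiP-GRP78 and encoded by HSPA5, is the main chaperone of that compartment and holds the stress sensors inactive. Its levels were 0.850 and 0.871 in untreated cells and 1.09 and 1.08 after sCT, a log2 change of 0.33 (SE 0.04, 95% interval 0.22 to 0.45, limma adjusted p = 0.00332). It was called with every sample left out (0.32 to 0.35) and under quantile normalization (0.56), but with relative loading control centring it was 0.15 (adjusted p = 0.111).

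XBP1, listed as XBP-1, is the transcription factor whose messenger RNA the sensor IRE1 splices. Its levels were 1.05 and 1.01 in untreated cells and 1.22 and 1.16 after sCT, a log2 change of 0.20 (limma, SE 0.05, adjusted p = 0.0266). Both sCT samples were above both untreated samples. The call was lost with any sample left out (adjusted p from 0.0616 to 0.135) and with relative loading control centring (0.02, adjusted p = 0.832). The row does not say whether the antibody binds the spliced or the unspliced form.

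PERK, the kinase that slows translation by phosphorylating eIF2-alpha, was 1.03 and 0.960 in untreated cells and 0.955 and 1.02 after sCT. It was the member for which the groups overlapped. The log2 fold change was -0.01 (limma, SE 0.06, adjusted p = 0.889), with a 95% interval of -0.17 to 0.15 under the deposited scaling. With relative loading control centring the change was -0.19 (limma adjusted p = 0.104), outside that interval. The interval therefore does not bound the change of total PERK across scalings. The antibody is to total PERK, so the level does not speak of its activity.

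BiP and XBP1 are textbook target genes of the unfolded protein response, and the sequences that respond to it are shown because the proteins of both genes were called higher. Both calls were lost with relative loading control centring. A match in known target genes was fixed in advance and does not test whether the response occurred here. The element searched was the ER stress response element, CCAAT followed after 9 bases by CCACG, on both strands of RefSeq promoter windows (GRCh38.p14, 250 bases before to 50 after each start, 300 in all). It was present in 27 of 35116 windows (0.0769%) and in 2 of the 15 windows of 11 member genes, those of HSPA5 and XBP1. The stretches around it, on the strand of each gene and ending before the start of transcription, are given with the element in capitals:
HSPA5, chr9:125241361-125241439, minus strand: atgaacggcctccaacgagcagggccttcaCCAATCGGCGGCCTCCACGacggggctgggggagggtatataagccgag
XBP1, chr22:28800573-28800651, minus strand: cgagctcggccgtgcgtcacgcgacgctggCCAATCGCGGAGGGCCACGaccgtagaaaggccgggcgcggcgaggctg
The element begins 66 bases before the start of HSPA5 and 52 before that of XBP1. The heat shock element, TTC, GAA and TTC with 2 bases between neighbours, searched in the same way, was in 172 windows (0.490%). It was in 1 of the 15 member windows, at a start of HSPD1, the gene of HSP60. A match describes the letters of the window, and no binding or transcription was measured. Both searches required every stated letter, so a window without a match may still hold an imperfect element.

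**Figure D3:**
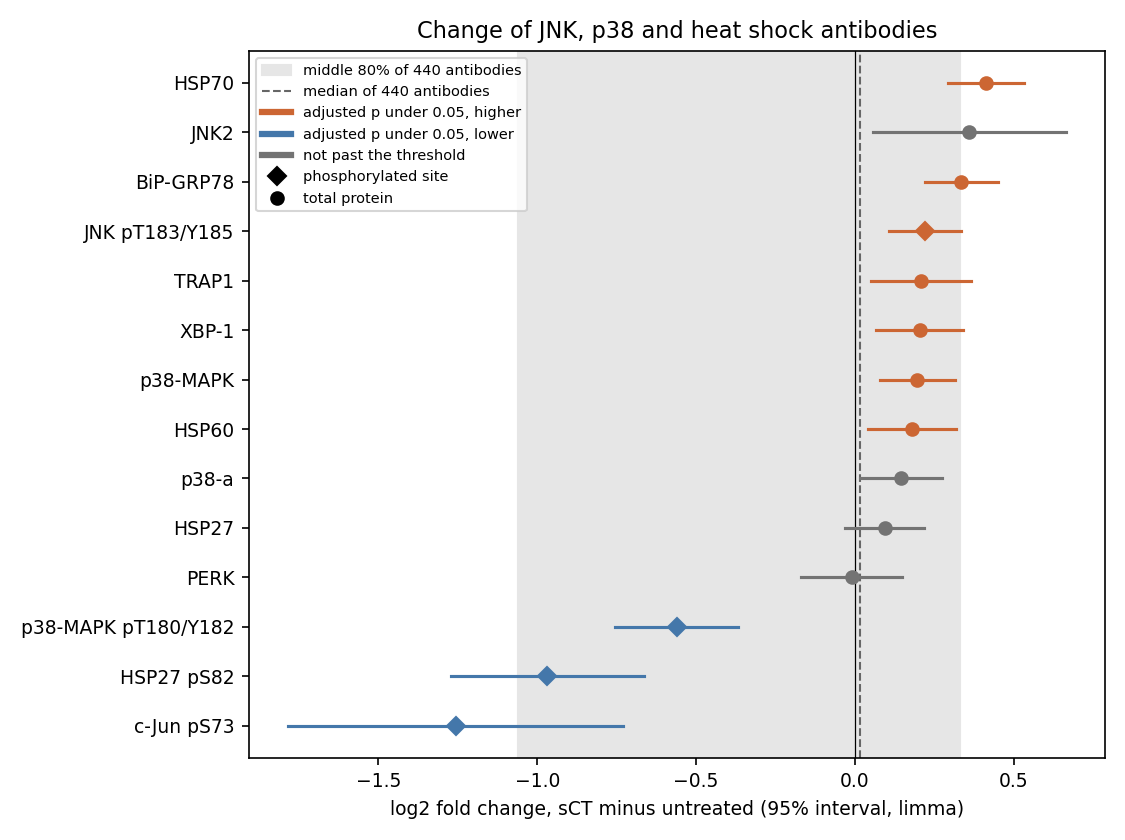
Log2 fold change of each antibody, sCT minus untreated (horizontal axis), with its 95% interval from limma, set against the middle 80% (grey band) and the median (dashed line) of all 440 antibodies. The c-Jun site lies outside the band on the left and HSP70, JNK2 and BiP on the right, while the other 10 lie within it; with relative loading control centring the values of HSP60, p38-a and HSP27 turn below 0.

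Taken by kind, the 10 total antibodies had a median log2 fold change of 0.20, against 0.05 over the 352 total antibodies of the panel. Of the 10, 6 were called higher (24.1% of the panel's total antibodies were) and 0 lower in limma (30.1% were), where 0 were lower at an unadjusted p of 0.05 too. The 4 sites had a median of -0.76, against -0.16 over the 88 sites, and 3 of them were called lower, where 47.7% of all sites were. With relative loading control centring, the c-Jun, HSP27 and p38 sites were still called lower, and of the rises only HSP70 was still called. On the panel, 197 antibodies were called lower and 28 higher with that centring. Quantile normalization kept the call of the p38 site (-0.44) and ended those of HSP27 S82 (-0.21) and c-Jun S73 (-0.26). The antibodies share the same 4 lysates and are not independent of each other.

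**Figure D4:**
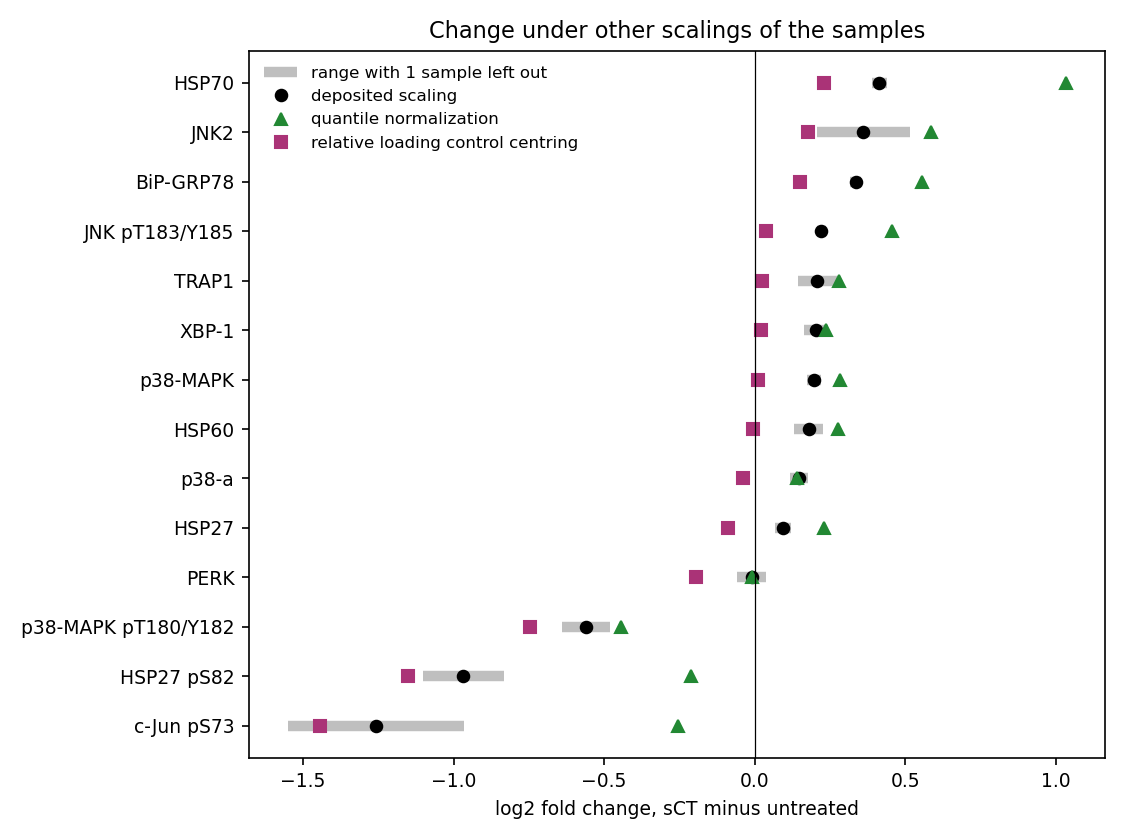
Log2 fold change of each antibody (horizontal axis) with the deposited scaling (black), after quantile normalization (green) and with relative loading control centring (purple), and its range when 1 sample is left out (grey bar). The p38, HSP27 and c-Jun sites stay below 0 in all of them, although quantile normalization leaves only -0.21 for HSP27 and -0.26 for c-Jun, and the purple points of HSP60, p38-a and HSP27 turn below 0.

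Other proteins of the stress response were taken from a list of kinase cascade, unfolded protein response, chaperone and oxidative stress proteins, 12 of which were on the panel. In limma 6 of them were called higher (21.4% of the panel) and 2 lower (33.6% of the panel), with a median log2 fold change of 0.16 against 0.02 over all 440 antibodies. Both lower calls belonged to the 3 kinase cascade antibodies. Elk1 phosphorylated at S383, a transcription factor site that mitogen-activated protein kinases phosphorylate, went from 1.09 and 1.13 to 0.930 and 0.920, a log2 change of -0.26 (limma, SE 0.05, adjusted p = 0.00863). DUSP6, a phosphatase that inactivates ERK, went from 1.09 and 1.18 to 0.851 and 0.877, a change of -0.39 (limma, SE 0.06, adjusted p = 0.00538). The related phosphatase DUSP4, which can also act on JNK, changed by -0.07 (adjusted p = 0.201), and by -0.26 with relative loading control centring (adjusted p = 0.0170). The untreated and sCT samples did not overlap for any of these 3 antibodies, as for 85.9% of the panel. The call of Elk1 was lost without either sCT sample (-0.27 without replicate 1 and -0.26 without replicate 2). That of DUSP6 was lost without sCT replicate 1 (adjusted p = 0.0503).

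Of the 6 rises on this list, 4 were among its 6 oxidative stress proteins. NQO1, a quinone reductase induced by the transcription factor NRF2, changed by 0.73 (limma, SE 0.14, adjusted p = 0.0121), from levels of 1.13 and 0.913 to 1.54 and 1.86. GCLC, the catalytic subunit of the enzyme that starts glutathione synthesis, went from 0.846 and 0.697 to 1.30 and 1.14, a change of 0.67 (limma, SE 0.12, adjusted p = 0.00881). Asparagine synthetase (ASNS), a target gene of the PERK branch, went from 0.905 and 0.922 to 1.57 and 1.46, a change of 0.73 (limma, SE 0.05, adjusted p = 0.000603). These 3 were higher in both sCT samples and were still called with relative loading control centring, at 0.55, 0.48 and 0.54. Leaving out untreated replicate 2 or sCT replicate 2 ended the call of NQO1 (adjusted p = 0.0542 and 0.0708), and leaving out sCT replicate 1 ended that of GCLC (adjusted p = 0.0647). Grp75, the mitochondrial HSP70, changed by 0.32 (limma, SE 0.05, adjusted p = 0.00696), from 0.789 and 0.751 to 0.981 and 0.938, a rise no longer called without sCT replicate 1 (adjusted p = 0.0578) or with relative loading control centring (0.13, adjusted p = 0.154). SOD1 and SOD2, which remove superoxide, were the other rises called, at 0.19 (adjusted p = 0.0381) and 0.25 (adjusted p = 0.00878), and with that centring they were at 0.01 and 0.06 and not called. SOD1 was called in only 1 of the 4 fits that left out a sample, the one without untreated replicate 1 (adjusted p = 0.0420, with 0.109 to 0.176 in the others), and SOD2 lost its call when either sCT sample was left out (adjusted p = 0.0637 and 0.0550). NRF2 itself (0.08, adjusted p = 0.200), GCLM (0.12, adjusted p = 0.0756) and the chaperone calnexin (0.06, adjusted p = 0.558) were not called, and all 3 turned below 0 with relative loading control centring.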

How the data were processed

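The authors printed serial dilutions of the lysates on nitrocellulose-coated slides, probed each slide with a primary antibody, developed it with DAB and quantified the spots. They deposited 1 linear ratio per antibody and sample. The steps from spot intensity to ratio are not given in the sources used here, which leaves the signal over background unknown. All 4 samples and 440 antibodies were used. Ratios were transformed to log2 without a pseudocount and fitted with limma 3.58.1 in R 4.3.3 (lmFit, eBayes, no covariates, 2 residual and 2.59 prior degrees of freedom), two-sided, with Benjamini-Hochberg adjustment over all 440 antibodies. All adjusted p-values come from limma unless another test is named. In 20 simulated data sets of this comparison with 440 antibodies, 100 of them changed by 0.80 log2 units, a median of 96.0% was recovered and 4.38% of the calls were false. The simulated spread was independent between antibodies, and 242 antibodies were called in the data. These shares therefore do not carry over to smaller changes, such as those of the member total antibodies (at most 0.41). The members, lists and tests were chosen with earlier results of these data known. Every antibody found by the rule was named. Of the stress list, DUSP4, DUSP6 and Elk1 were named whatever their values, with the 4 largest other changes that were called, and SOD1, SOD2, NRF2, GCLM and calnexin were added after their values were seen. Gene names of the antibodies and their roles come from general knowledge, since the deposited rows pair none. All 11 member genes were found among the RefSeq promoter windows, with HSPA1A taken for HSP70. Alternatives were linear levels, 3 other scalings, other variance models and tests, a filter on low levels, left-out samples and the replicate number as a block.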

Additional observations from a re-analysis of the deposited data

How the results depend on the processing

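The number of called JNK, p38 and heat shock antibodies was 10 of 14 in limma and lay between 5 and 7 with each sample left out, where a group of 1 sample borrows its spread from the other. Higher calls (7) then lay between 2 and 4 and lower calls (3) between 2 and 3. Over the panel, 242 calls (94 higher, 148 lower) became 148 to 214, with 38 to 76 higher and 110 to 138 lower, and the 8 calls of the stress list (6 higher, 2 lower) became 2 to 8, with 2 to 6 higher and 0 to 2 lower. The lowest totals came without sCT replicate 1 (148 antibodies, 5 members, 2 of the stress list) and sCT replicate 2 (158, 5 and 4). Untreated replicate 2 also mattered, with 55 higher antibodies and 6 members, 3 of them higher, without it, and untreated replicate 1, with 4 members higher. Fewer samples leave fewer degrees of freedom.

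With relative loading control centring 4 members were called (1 higher and 3 lower), against 225 of the 440 antibodies (28 higher and 197 lower). On the stress list 3 were higher. Quantile normalization left 1 lower member, with 115 lower antibodies on the panel. A filter that drops the 10% of the panel with the lowest mean also left 1, with 110 on the panel, because it removes the c-Jun and HSP27 sites from the fit. Higher calls on the panel were 93 with this filter. The mean is over all 4 samples on a relative scale, so a fall lowers it, and the filter does not check for low signal. On linear levels, the unequal-variance test called 1 antibody, which was lower, with 0 higher, and 0 members and 0 of the stress list, with 3 and 2 of these at an unadjusted p of 0.05, as 155 of the 440 antibodies were. Limma's treat against 0.58 called 60 antibodies, 1 higher and 59 lower, and 0 members and 0 of the stress list, with 2 and 1 at an unadjusted p of 0.05 and 75 on the panel.

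Directions turned with relative loading control centring for p38-a (-0.0395), HSP27 (-0.0902), HSP60 (-0.00593), calnexin (-0.124), GCLM (-0.0651) and NRF2 (-0.103). With a sample left out, PERK lay between -0.0580 and 0.0381, above 0 without untreated replicate 1 or sCT replicate 1, and calnexin between -0.0489 and 0.171, below 0 without sCT replicate 1. JNK relative to JNK2, -0.14, lay between -0.295 and 0.0149, above 0 without untreated replicate 2. The site of p38 relative to p38-a was -0.58 under quantile normalization and that of HSP27 relative to HSP27 -0.44. The cause was not tested for these. Linear levels, median centring and eBayes with trend and robust estimation turned no member's direction.

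Samples of the same replicate number deviated together across antibodies (r = 0.586), but with 2 numbers this is only a hint. With the replicate block, 238 antibodies and 9 members were called, HSP60 (adjusted p = 0.0513) and TRAP1 (adjusted p = 0.0575) lost their calls and p38-a gained one (adjusted p = 0.0473), and on the stress list NQO1 (adjusted p = 0.0550) and SOD1 (adjusted p = 0.0698) lost theirs. No other call of these antibodies changed with the block.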
